A study of Drosophila melanogaster with 3 samples.

Results

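Nested genes are genes that lie whole inside an intron of another gene, the host. Here they were taken from isoforms assembled from long reads of adult Drosophila melanogaster heads. A gene was called nested when every one of its multi-exon isoforms lay within 1 intron of an isoform of another gene, and 38 of 3795 genes with a multi-exon isoform met this rule (1.0%, 95% Wilson interval 0.730 to 1.37%). In all, 4059 genes with an identifier had an isoform. The isoforms came from PacBio Iso-seq of total RNA from the heads of untreated, 3-day-old w1118 flies, a white-eyed laboratory stock commonly used as wild type, kept at 25 °C. The 3 libraries formed 1 group with no control or treated group, and their isoforms were deposited as 1 pooled assembly on the dm6 build, without abundance. No replicate error, depth per library or test between groups could therefore be given, and intervals cover only the number of genes or introns counted. The 38 genes were chosen by the exon and intron coordinates of these isoforms, so their positions are given as a description, with no test.

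An intron is removed from the host transcript as it is made, so a gene can occupy that space with its own promoter, exons and 3′ end. A nested gene may read in the direction of the host or against it. When it reads in the same direction, its own polyadenylation site lies within the transcription unit of the host. When it reads against it, both strands of the same DNA are transcribed. Such arrangements are common in the compact fly genome. A classical example is the tumorous imaginal discs locus, in which a gene for a DnaJ-type co-chaperone lies within a gene for a glycosyltransferase. The host intron is a splice junction that was read in the assembly, so that both partners of each of the 38 pairs had isoforms in the pooled heads.

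All 13 photoreceptor marker genes examined, among them ninaE, trp, norpA and Arr1, had an isoform, as did 7 of 9 neuronal, 3 of 4 glial, 2 of 3 muscle and 3 of 3 fat body markers. None of 3 testis markers and 2 of 6 germline markers, grk and tud, were present. The assembly held 5272 isoforms, of which 4700 had several exons and a gene identifier. They contained 16030 introns, counted once per gene. A missing gene was not detected under the filters of the assembly and is not shown to be silent.

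The 38 nested genes lay in 42 distinct introns of 34 host genes, and none of them was itself a host. For 7 genes several introns enclosed the gene, and the shortest is then given as the host intron. These shortest introns numbered 35, in 33 genes. Most read against the host: 33 of 38 genes, or 86.8% (72.7 to 94.2%), were on the opposite strand. Among neighbouring multi-exon genes that do not overlap, the share on opposite strands was 52.2% (50.6 to 53.8%, n = 3684 pairs). In the reference annotation, 1368 of 13945 protein-coding genes lie inside an annotated intron of another protein-coding gene, and 69.2% of these (66.7 to 71.6%) are on the opposite strand. Among the 869 of them with a multi-exon transcript, the share is 78.0% (75.1 to 80.6%). The share in heads was thus above that of neighbouring genes, and its interval included the share for annotated nested multi-exon genes.

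**Figure D1:**
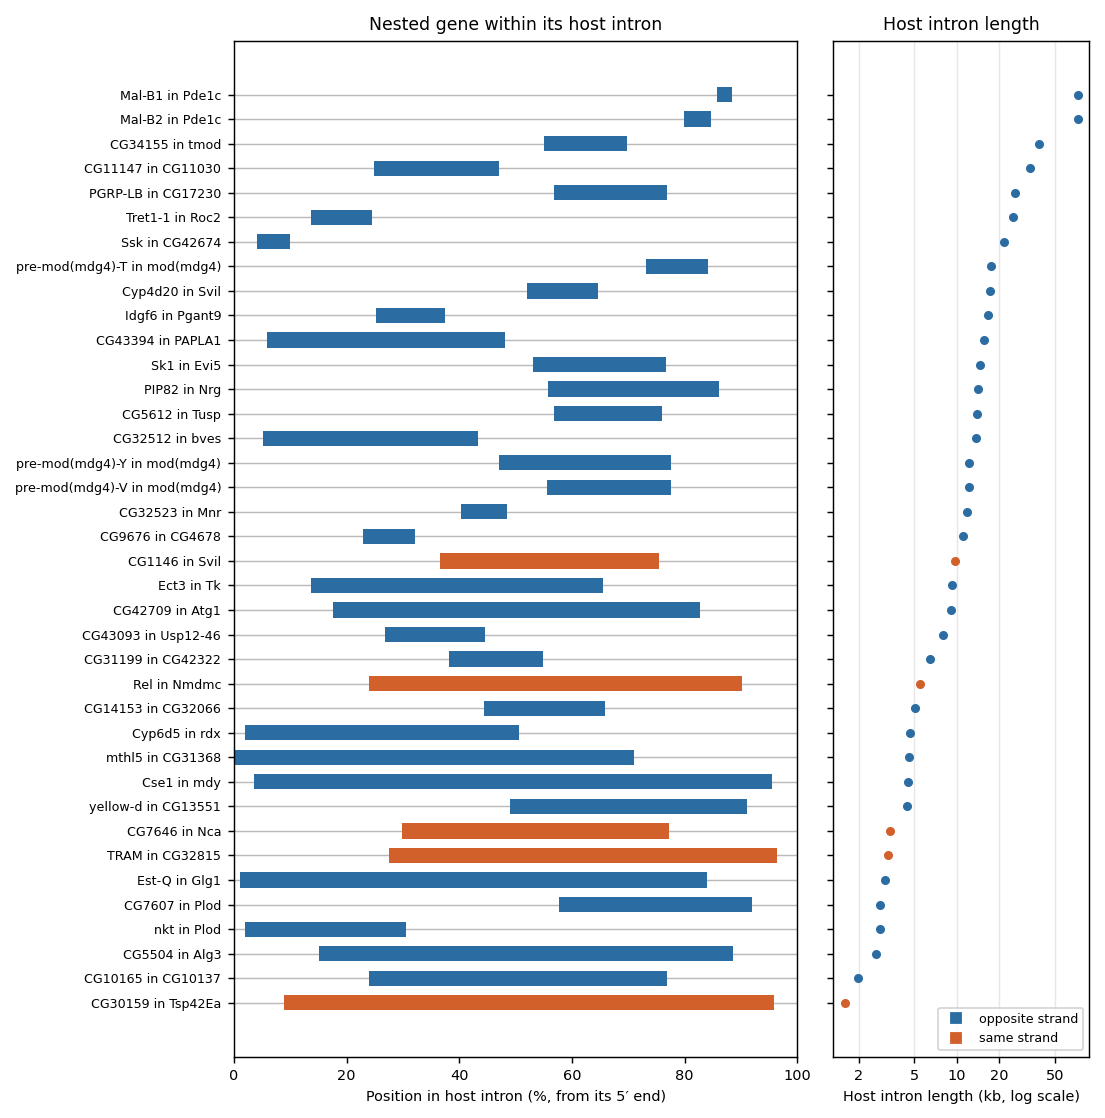
Position of each of the 38 nested genes within its host intron, as percent of the intron from its 5′ end (left), and the length of that intron in kb on a log scale (right). Each row is 1 nested gene, ordered by intron length from 72912 nt for Mal-B1 and Mal-B2 to 1595 nt for CG30159; blue marks the opposite and orange the same strand as the host.

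Mal-B1 and Mal-B2, which encode maltases, lay side by side in intron 3 of Pde1c, a cyclic nucleotide phosphodiesterase gene, which measured 72912 nt (chromosome 2L, 11838774 to 11911685). Mal-B1 ran from 11847227 to 11849169 and Mal-B2 from 11849959 to 11853430, both against the host, with 789 nt between them. Together they sat toward the 3′ end of this intron, with their middles at 87.1% and 82.3% of its length. Mal-B1 had 3 exons and 1813 spliced nt, and Mal-B2 had 6 exons and 2793 nt. The 3′ end of Mal-B2 lay 549 nt from the nearest annotated one.

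The next introns by length held single genes in this assembly. The 38301 nt intron of tmod, which encodes the actin-capping protein tropomodulin, contained CG34155. The 33466 nt intron 1 of CG11030 contained CG11147. PGRP-LB, an amidase that degrades bacterial peptidoglycan and dampens the Imd immune response, lay in the only intron of the CG17230 isoform (25927 nt; PGRP-LB from 11452850 to 11458020 on chromosome 3R). Its first intron took 3765 nt and its spliced length was 1254 nt, so that 75.7% of its span was intronic, the largest such share among the 38. Tret1-1, a trehalose transporter gene, occupied part of intron 2 of Roc2, a RING-finger gene of ubiquitin ligases (25122 nt). Ssk, which encodes a protein of smooth septate junctions, lay close to the 5′ end of a 21594 nt intron of CG42674, with 878 nt before it and 19459 nt after it. All of these read against the host.

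Introns of intermediate length also held genes of varied function. Cyp4d20, a cytochrome P450 gene, lay in a 17294 nt intron of Svil (supervillin), and Idgf6, of the chitinase-like imaginal disc growth factors, in intron 6 of Pgant9, a gene of O-linked glycosylation (16768 nt). Sk1, which encodes a sphingosine kinase, lay in intron 1 of Evi5 (14689 nt). PIP82, a photoreceptor protein gene, lay in intron 1 of Nrg, the fly L1-type adhesion molecule (14276 nt; PIP82 from 8525388 to 8529698 on chromosome X). Its isoform of 4088 spliced nt was the longest among the nested genes, with a middle exon of 3315 nt. Ect3, a beta-galactosidase gene, lay in intron 1 of the neuropeptide gene Tk (tachykinin, 9291 nt). CG42709 filled 65.1% of the 9054 nt intron 2 of Atg1, the kinase that starts autophagy.

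Among the genes in short host introns, CG5504, which RefSeq lists under the older name l(2)tid, was transcribed from 23707082 to 23709026 on chromosome 2R, inside the single intron of the Alg3 isoform (2650 nt, 23706778 to 23709427). Alg3, a mannosyltransferase gene of N-glycan assembly with the older name l(2)not, has 304 nt of intron on one side of CG5504 and 401 nt on the other. This is the DnaJ pair named above. Cse1, which encodes the export receptor for importin alpha, filled 91.9% of a 4479 nt intron of mdy, a diacylglycerol acyltransferase gene, and had 7 exons and 3299 spliced nt. This was the largest filled share among the 38. The other host introns under 3000 nt were those of Plod, a procollagen lysyl hydroxylase gene (2822 nt, with CG7607 and nkt, which filled 34.3% and 28.6% of it), CG10137 (1966 nt, 53.0% filled by CG10165) and Tsp42Ea (1595 nt, 86.9% filled by CG30159).

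Across all 38 genes the host intron had a median length of 10405 nt (95% interval of the median 5068 to 14276 nt, quartiles 4498.75 and 16511.5 nt). The nested gene filled a median of 29.4% of it (19.1 to 42.3%), from 2.66% for Mal-B1 to 91.9% for Cse1, and over 50% in 10 genes. Its middle lay between 20 and 80% of the intron in 33 genes, with a median of 52.1% (42.4 to 62.0%). A gene that fills over 50% of its intron must have its middle in this range. No expected share was computed, so the count shows no preference for the centre. The nearest host exon was a median of 1866 nt away (720 to 2741 nt) and under 500 nt away in 11 genes.

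Whether a nested gene lies near a host exon bears on how strictly the rule holds. The nearest was mthl5, a Methuselah-like receptor gene, with 3 nt between its 3′ end and the end of exon 3 of CG31368. It was followed by Est-Q, an esterase gene, 31 nt from an exon of Glg1, by nkt (56 nt, Plod), CG30159 (66 nt, Tsp42Ea) and Cyp6d5, a second P450 gene, 89 nt from an exon of rdx, an adaptor gene of Cullin ubiquitin ligases. Just outside the rule were 13 genes that lay mostly within an intron but crossed 1 of its ends (11 genes) or both (2 genes). The smallest overhangs were 43 nt for lncRNA:CR42549 in mura, 175 nt for Gyg in CG44245, 198 nt for fau in CG45076, 289 nt for Krn in Ndfip and 381 nt for CG8229 in CG33199. Of these 13 genes, 10 were on the strand of the host, against 5 of the 38 nested genes.

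**Figure D2:**
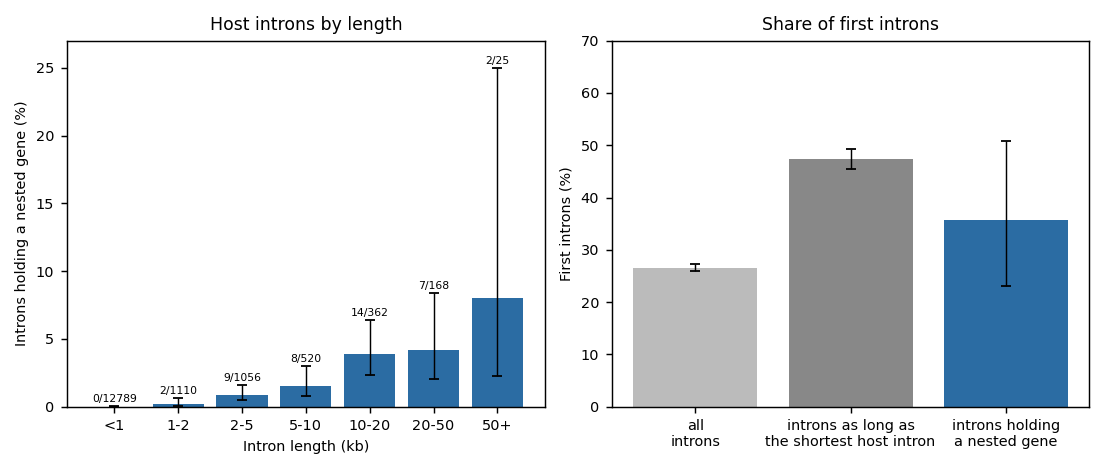
Left, percent of the introns of multi-exon genes that hold a nested gene, by intron length class in kb, with the counts above each bar. Right, percent of introns that are the first of their isoform, for all 16030 introns, for the 2475 introns at least as long as the shortest host intron (1595 nt) and for the 42 introns that enclose a nested gene; bars show 95% Wilson intervals. The share of introns with a nested gene was 0.180% from 1 to 2 kb and 3.87% from 10 to 20 kb.

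Host introns were long, as they must be to hold a gene. None of the 12789 introns under 1000 nt held one. The share was 0.852% (0.449 to 1.61%) for introns from 2000 to under 5000 nt and 1.54% (0.782 to 3.01%) from 5000 to under 10000 nt. It was 3.87% (2.32 to 6.39%) from 10000 to under 20000 nt and 4.17% (2.03 to 8.35%) from 20000 to under 50000 nt. The intervals of these 4 classes overlap from each to the next. Of the 25 introns of 50000 nt or more, 2 enclosed a nested gene, that of Pde1c and a 69246 nt intron of Mnr around CG32523, which also lay in an 11780 nt intron of another Mnr isoform. Introns of the same gene that overlap, as in mod(mdg4), were counted separately. The median intron of the assembly measured 90 nt.

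By rank, 13 nested genes lay in intron 1 of the host, 9 in intron 2, 8 in intron 3, 4 in intron 4 and 4 in introns 5 to 7. The share in intron 1 was 34.2% (21.2 to 50.1%). Of the 42 introns around a nested gene, 35.7% (23.0 to 50.8%) were first introns, against 26.6% (25.9 to 27.3%) of all introns and 47.4% (45.4 to 49.3%) of the 2475 introns at least as long as the shortest host intron. This interval includes both of the other shares. The 2475 introns had a median of 4286 nt and the 42 a median of 11985.5 nt, so the 2 pools differ in length. In 12 cases the host intron was the last of its isoform, as in Plod, where intron 7 held CG7607 and nkt. No share of last introns among all introns was counted beside it. The 12 count mod(mdg4) for each of the genes nested in it and Plod for both genes. They also include the single introns of CG17230 and Alg3, which are first introns as well. The Plod and CG42674 isoforms ended 1133 and 19046 nt from annotated 3′ ends, so their last introns may not be last in a complete transcript.

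The place of the host intron relative to the host reading frame was taken from annotated transcripts with the same intron. For 17 nested genes (44.7%, 30.1 to 60.3%) the intron lay in the 5′ UTR of the host and for 21 (55.3%, 39.7 to 69.9%) between coding exons. Among the nested genes in 5′ UTR introns were PGRP-LB, PIP82 in Nrg, Sk1 in Evi5 and both maltase genes in Pde1c. Coding introns held CG5504 in Alg3, Cse1 in mdy and Idgf6 in Pgant9. Intron 1 was the host intron for 10 of the 17 and for 3 of the 21. The share of first introns among other 5′ UTR and coding introns was not counted, so this contrast is not shown to be particular to nested genes. Counted by intron, 42.9% (29.1 to 57.8%) of the 42 were in the 5′ UTR, against 12.5% (12.0 to 13.0%) of all introns. Among the 2475 introns at least as long as the shortest host intron, which are not matched in length, it was 36.2% (34.4 to 38.2%).

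**Figure D3:**
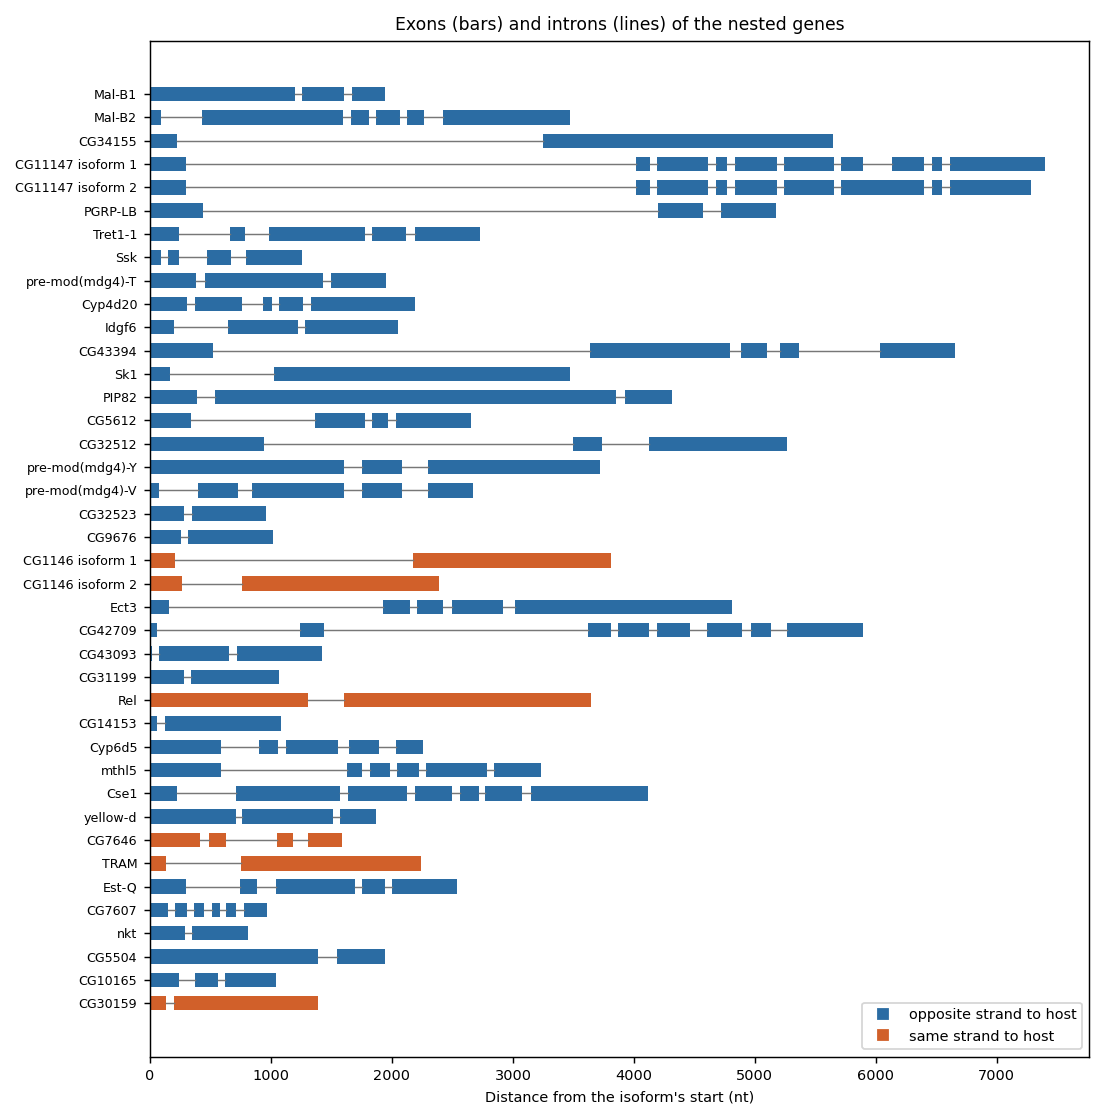
Exon structure of the nested genes. Each row is 1 isoform, drawn to scale in nt from its start, with exons as bars and introns as lines, in the order of the host intron length; blue marks the opposite and orange the same strand as the host. CG11147 has 10 and 9 exons in its isoforms, and 12 genes have 2 exons.

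The nested genes were themselves compact. They had a median of 3 exons (interval 3 to 5) and a spliced length of 1814.5 nt (1506 to 1979 nt) within a span of 2396.5 nt (1943 to 3472 nt). The other 3757 multi-exon genes had medians of 4 exons, 1991 nt and 3354 nt. Since a nested gene must fit its intron, the 2850 other genes with a span no longer than the largest nested span, 7395 nt, are the nearer comparison. Their medians were 4 exons, 1744.5 nt (1707 to 1794 nt) and 2486 nt (2398 to 2559 nt), and the intervals of both lengths overlap those of the nested genes. Genes with only 2 exons made up 31.6% (19.1 to 47.5%) of the nested genes and 22.2% (20.7 to 23.7%) of these others, and again the nested interval includes the other share.

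Exon numbers ranged widely. CG11147 had the most, 10 exons in the isoform from 5733560 to 5740954 on chromosome 2L, followed by CG42709 with 8, Cse1 with 7, and mthl5, CG7607 and Mal-B2 with 6 each. CG7607 packed its 6 exons into the shortest spliced isoform, 667 nt, with introns of 53 to 69 nt. The next shortest were nkt (754 nt), Ssk (836 nt), CG10165 (853 nt) and CG32523 (890 nt). At the other end were PIP82, pre-mod(mdg4)-Y with 3352 nt, Rel with 3350 nt, Cse1 with 3299 nt and CG11147 with 3013 nt in its 10-exon isoform.

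Introns within the nested genes were mostly short, and so were those of other genes of like span. In 11 genes, among them Mal-B1, yellow-d and CG9676, the longest intron was under 80 nt. This is 28.9% (17.0 to 44.8%), against 26.9% (25.3 to 28.5%) of the other genes of like span. The longest intron had a median of 320.5 nt (148 to 482 nt) in nested genes and 288 nt (264 to 315 nt) in those others. In 10 genes an isoform had an intron of 1000 nt or more, and in CG34155 (3027 nt), CG43394 (3113 nt), CG11147 (3722 nt) and PGRP-LB (3765 nt) this intron exceeded 3000 nt. In all of these cases the host transcript was spliced over a gene that had long introns of its own. Among the 26 members with 3 or more exons the longest intron was the first in 17 (65.4%, 46.2 to 80.6%). For other genes of like span the share was 55.5% (53.5 to 57.6%), within that interval.

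Few nested genes had several isoforms. CG1146 and CG11147 had 2 each and the other 36 had 1, so that 5.26% (1.46 to 17.3%) of nested genes had more than 1 isoform. Among other genes of like span the share was 10.2% (9.12 to 11.3%), which the nested interval includes. In CG1146, isoforms started at 2488805 and at 2490221 on chromosome 3L and ended together at 2492613, so that only the start and the length of the intron (1970 or 491 nt) differed. In CG11147 both isoforms started at 5740954. The 9-exon isoform kept the 236 nt intron between exons 7 and 8 of the other as exon sequence and ended at 5733676, upstream of the other's end at 5733560. No nested gene had more than 1 polyadenylation site (PAS, 3′ ends over 150 nt apart), and CG1146 alone had more than 1 transcription start site (TSS, over 50 nt apart). For 0 of 38 genes the Wilson interval reaches 9.18%, and 3.58% of the other genes of like span had several PASs.

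All 38 genes are annotated as protein-coding, and each isoform of theirs started within 1 nt of an annotated TSS. The assembly kept only reads whose 5′ end had support in a promoter database, and no share over other genes was counted. The match of the starts is therefore a description only. The splice chain, the ordered set of junctions, was annotated for every isoform of 34 genes. Exceptions were the 9-exon isoform of CG11147, the isoforms labelled pre-mod(mdg4)-Y and pre-mod(mdg4)-V, and CG43093. The CG43093 isoform joined a junction of its own gene to one annotated in the adjacent gene CG43092, and it ended 891 nt from the nearest annotated 3′ end of CG43093, so its gene label is uncertain. In 33 of 38 genes (86.8%, 72.7 to 94.2%) all 3′ ends lay within 150 nt of an annotated one, against 80.4% (78.9 to 81.8%) of the other genes of like span. The rest were Mal-B2, Ect3, CG43093 and these pre-mod(mdg4) units.

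**Figure D4:**
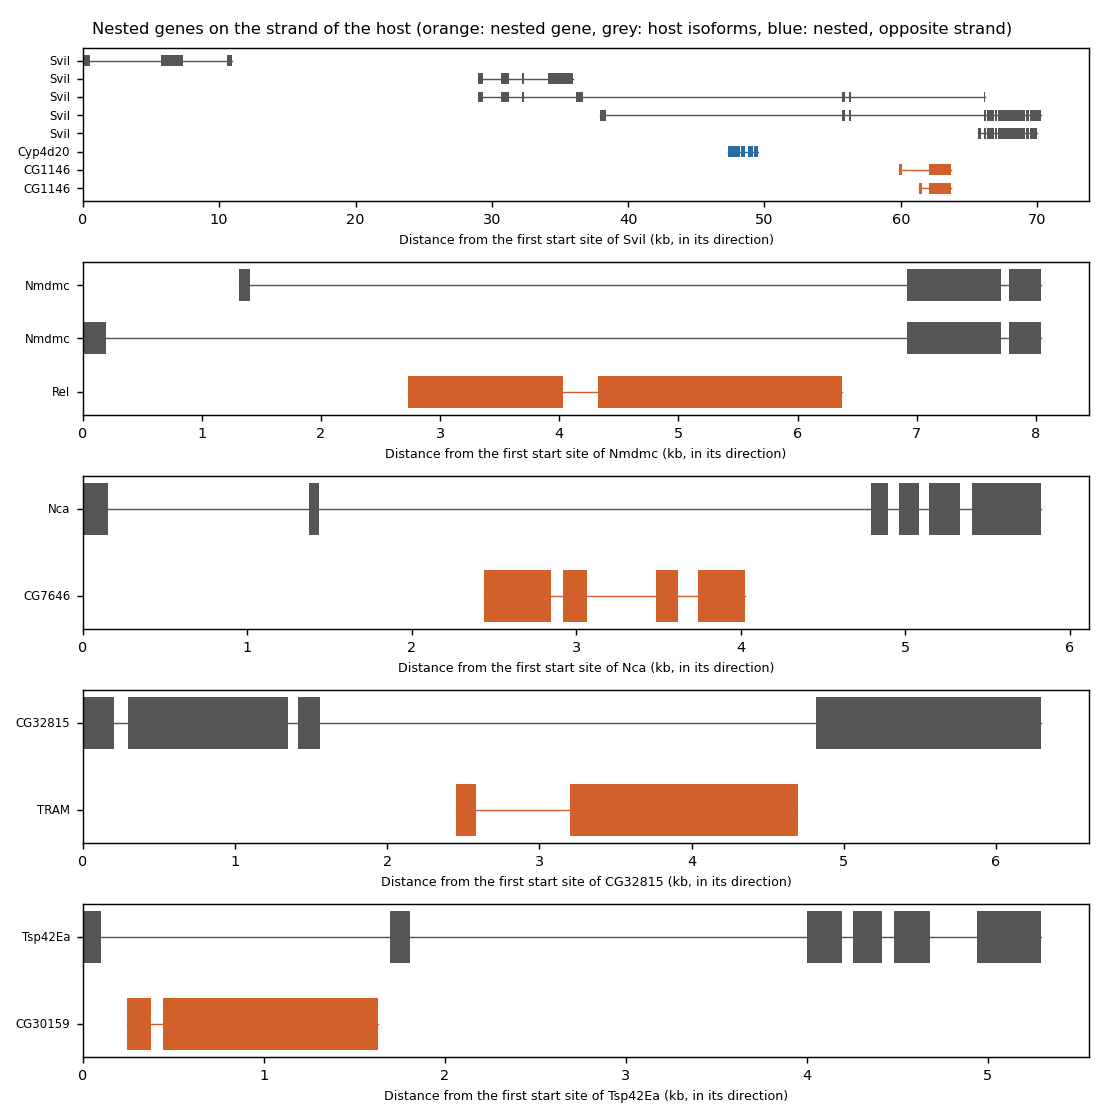
Loci of the 5 nested genes on the strand of their host, in kb from the first start site of the host and in its direction. Grey rows are host isoforms, orange rows are the nested gene and blue is Cyp4d20, nested in Svil on the opposite strand; bars are exons. In each panel the orange gene falls between exons of the host.

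The 5 genes on the strand of the host lay in introns of 1595 to 9782 nt, with a median of 3358 nt, whereas the introns around the 33 opposite-strand genes had a median of 12191 nt and ranged from 1966 to 72912 nt. Rel, the NF-kappaB factor of the Imd immune pathway, ran from 9047829 down to 9044184 on chromosome 3R. It was enclosed by intron 1 of Nmdmc, a mitochondrial enzyme gene of folate metabolism. Both Nmdmc isoforms spliced over Rel, from start sites at 9050555 and 9049247, so that the whole of Rel lay between the alternative first exons and the shared body of Nmdmc. The closer start site was 1418 nt upstream of that of Rel, and 544 nt separated the Rel 3′ end from the next Nmdmc exon.

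In 2 of the 5 pairs the annotation also lets both genes start together. CG7646 lay in intron 2 of Nca (neurocalcin, a calcium sensor), from 19994324 to 19995912 on chromosome 3L. Its detected isoform started 2436 nt downstream of the start of Nca, but 2 of its 3 annotated transcripts start within 50 nt of that site, the nearest 1 nt away. CG30159 lay in intron 1 of the tetraspanin gene Tsp42Ea, with a start site 244 nt downstream, and 2 of its 3 annotated transcripts also start within 50 nt of the Tsp42Ea start, the nearest 4 nt away. Both genes therefore met the rule through the isoform detected in heads. By their full annotated extents they reach 1436 and 97 nt beyond the host intron. CG10165, on the opposite strand in CG10137, reaches 1528 nt beyond it. The other 35 genes stay within an annotated host intron.

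TRAM, which encodes a translocon-associated membrane protein, lay in intron 3 of CG32815 on chromosome X, from 935581 to 937822, with 899 nt of intron before it and 118 nt after it. CG1146 lay in a 9782 nt intron of Svil, which was intron 3 of one Svil isoform and intron 6 of another. None of the annotated TSSs of Rel, TRAM and CG1146 was within 50 nt of a detected host start. The 3′ end of all 5 genes lay within 150 nt of an annotated one, inside a host intron that was joined in the host isoform.

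**Figure D5:**
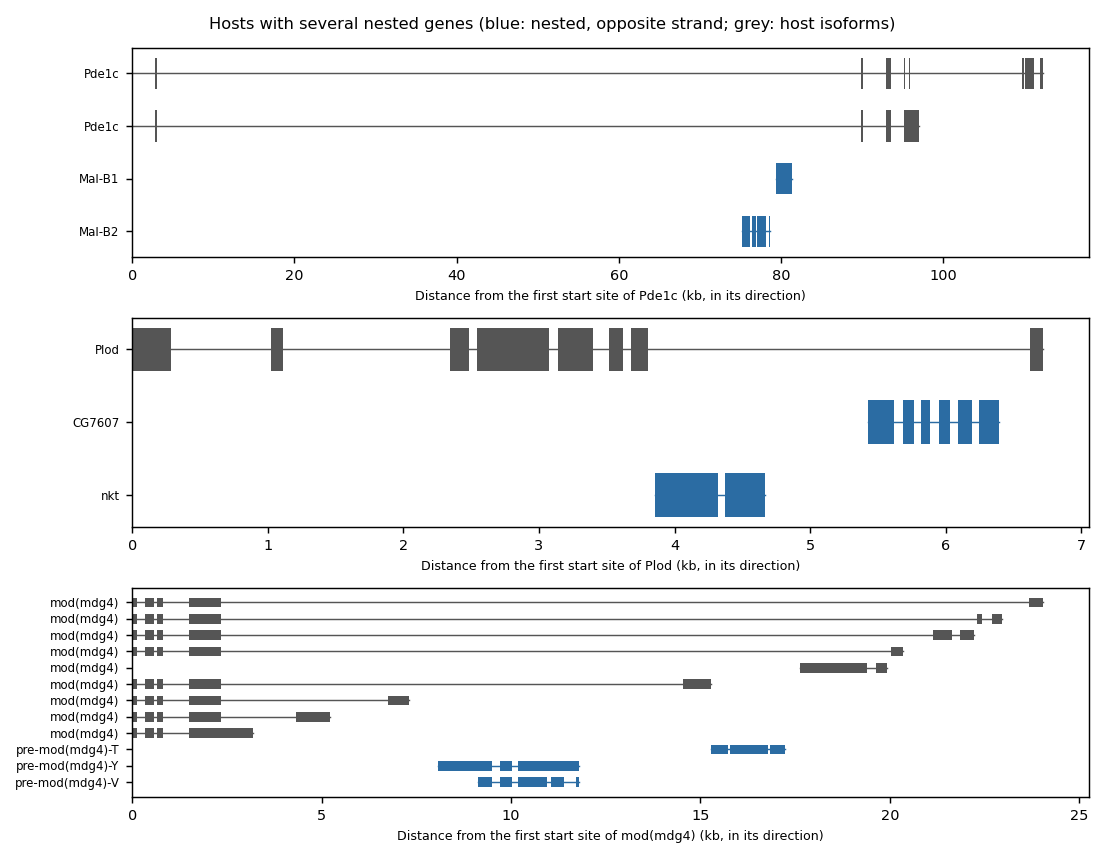
Loci of Pde1c, Plod and mod(mdg4), hosts with several nested genes, in kb from the first host start site and in the direction of the host. Grey rows are host isoforms and blue rows the nested genes, all on the opposite strand; bars are exons. At mod(mdg4) the 9 host isoforms end at 9 positions, on both sides of the nested units.

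Of the 34 hosts, 30 had 1 nested gene, while Pde1c, Plod and Svil had 2 each and mod(mdg4) had 3. In Plod, nkt and CG7607 both read against the host, 764 nt apart, in the last intron of the detected isoform. That isoform had only part of an annotated splice chain and ended 1133 nt from the nearest annotated 3′ end. In Svil, Cyp4d20 and CG1146 lay 10356 nt apart in different introns and read in opposite directions. CG43093 was the only gene with 2 hosts: it was enclosed by intron 2 of the deubiquitinase gene Usp12-46 (8022 nt) and by intron 2 of CG7029, whose detected isoforms start at the same site.

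At mod(mdg4), a chromatin protein gene whose mRNAs are known to be formed in part by trans-splicing of separately transcribed 3′ units, these units were the nested genes. The isoforms labelled pre-mod(mdg4)-T, -Y and -V lay on the plus strand of chromosome 3R, against mod(mdg4), in intron 4 of the host isoform with the shortest intron around them. The unit T ran from 21360177 to 21362131 and was enclosed by this intron in 4 mod(mdg4) isoforms, of 17695 nt in the shortest case. Y and V both started at 21365610 and were enclosed in 5 isoforms, of 12191 nt in the shortest case. The remaining mod(mdg4) isoforms ended upstream of the units or, in 1 case, started downstream of them. The isoform labelled Y ended at 21369330, an annotated end of V and 1051 nt from the nearest annotated end of Y. The isoform labelled V ended at 21368279, an annotated end of Y and 1051 nt from that of V. Both junctions of the isoform labelled Y are annotated in both genes, and of the 4 junctions of the isoform labelled V all are annotated in V and 3 in Y, so these labels are uncertain. In the same introns 12 further pre-mod(mdg4) units are annotated, and none had an isoform.

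Alternative host isoforms bypassed the nested gene in some loci. For 7 nested genes the host also had an isoform that started downstream of them, as with 2 of the 3 tmod isoforms at CG34155 and 1 of 2 rdx isoforms at Cyp6d5, and with Svil and mod(mdg4). For 5 genes, in Svil and mod(mdg4), a host isoform ended upstream of them. The mod(mdg4) isoform that started downstream had only part of an annotated splice chain. So did 1 Svil isoform and 1 mod(mdg4) isoform that ended upstream, and these isoforms may be incomplete. Every host isoform that spanned a nested gene carried it within an intron, for all 38 genes. Where a single host isoform spanned the gene, the rule itself fixed this outcome. For the host of the shortest intron, several isoforms spanned the gene only in Pde1c, mod(mdg4), Svil, Mnr and Nmdmc. No annotated exon of the host transcripts lay over any of the 38 genes. For each of the 38 genes the host intron is annotated in the host gene, although the host isoform can be incomplete. The CG42674 isoform around Ssk ended 19046 nt from an annotated 3′ end, and isoforms of Svil and Pde1c ended up to 24729 and 15630 nt from one. In 23 of the 34 hosts (67.6%, 50.8 to 80.9%) all 3′ ends lay within 150 nt of an annotated one. The share was 73.9% (72.5 to 75.3%) of the other 3757 multi-exon genes, within that interval. Host exon numbers and spans are those of the detected isoforms. The hosts had a median of 7 exons (interval 5 to 8) and a span of 21621 nt (10304 to 27958 nt). The longest intron of the host isoform with most exons had a median of 13022.5 nt. That isoform need not hold the host intron: tmod counts with 8327 nt, although its host intron measured 38301 nt.

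How the nested genes of the assembly relate to those of the annotation was counted last. Of the 1368 annotated nested protein-coding genes, 177 (12.9%, 11.3 to 14.8%) had any isoform, against 3852 of 12577 others (30.6%, 29.8 to 31.4%). By longest annotated transcript, the share detected was 4.99% (3.48 to 7.12%) against 13.7% (12.5 to 15.0%) under 1000 nt and 14.8% (12.0 to 18.3%) against 29.4% (28.0 to 30.8%) from 1000 to under 2000 nt. It was 24.3% (19.0 to 30.5%) against 38.9% (37.0 to 40.9%) from 2000 to under 3000 nt, and 23.2% (16.4 to 31.8%) against 41.4% (39.7 to 43.1%) from 3000 nt. In each of the 4 classes annotated nested genes had the lower share, and the intervals were apart. The expression of these genes in heads was not measured in the file, and its part in this difference was not tested.

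Of the annotated nested genes, 136 had a multi-exon isoform in heads, and 35 of them (25.7%, 19.1 to 33.7%) were among the 38. For 80 others no annotated host had a multi-exon isoform, and for 21 a host was present but none of its isoforms had an intron around the nested gene. A pair was thus recorded only where both partners passed the filters of the assembly. Among 9 well-known pairs none was found: Rh4, ChAT and dnc had isoforms as hosts, but sina, VAChT, Sgs4, Pig1 and ng1, ng2 and ng3 within them had none, and Pcp in Gart and 2mit in timeout lacked both partners. The shortest host introns held 39 further annotated protein-coding genes, in 12 of the 35, such as Tret1-2 beside Tret1-1 in Roc2, yellow-d2 beside yellow-d in CG13551 and sphe beside CG9676 in CG4678. None of the 39 had an isoform. A further gene with multi-exon isoforms inside these introns would itself have been counted as nested.

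Nested genes were found on 5 chromosome arms: 12 on 3R, 9 on 3L, 6 each on 2L and X and 5 on 2R. Chromosome 4, with 42 other multi-exon genes, had none. The shares per arm overlapped those of other multi-exon genes, for example 31.6% (19.1 to 47.5%) against 24.7% (23.3 to 26.1%) on 3R.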

How the data were processed

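Starting from 0.5 µg of total RNA, the libraries received 14 PCR cycles, a size selection for over 3 kb and a run on 3 SMRT cells. The authors then pooled the 3 libraries, aligned the consensus reads to dm6 with STARlong and collapsed them with FLAIR, using short-read junctions and a promoter database for 5′ ends. The deposited file lists exon coordinates in nt, with no abundance, so depth is unknown. A number per isoform whose meaning no source states was not used. For the study's filter on 3′ ends, no source used here says whether it had been applied. Size selection and the promoter filter limit which genes can appear.

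Gene structure was compared with the Ensembl release 115 annotation (BDGP6.54), which holds 99.1% of the junctions. It lacked 24 gene identifiers of multi-exon isoforms. Genomic left ends lie 1 nt right of annotated starts. Loci without a gene identifier and single-exon isoforms were left out, as the rule requires. Where several introns enclosed a gene, the shortest was used, and its rank was the lowest among the host isoforms with it. Structure values are those of the isoform with most exons and, among equals, the longest. Shares have 95% Wilson intervals and medians have order-statistic intervals, for counting error over genes only; no test was run. The rule was checked on simulated loci. No genome sequence was used here. Members and gene lists were chosen with earlier results of these data known.

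Named genes followed a rule: hosts with several nested genes, members with several isoforms, the 10 longest and 5 shortest host introns, the 5 extremes of exon number, spliced length and distance to host exons, the 5 genes just outside, all same-strand members, and listed textbook pairs. Other genes, such as Sk1, Ect3, CG43093, CG43394 and yellow-d, were named with their values in view. The software was Python 3.11.15 with numpy 2.4.6, scipy 1.17.1 and matplotlib 3.10.9.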

Additional observations from a re-analysis of the deposited data

Results flagged for a closer look

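Outside the genes with an identifier, 22 of 303 isoforms at unnamed loci (7.26%, 95% Wilson interval 4.84 to 10.7%) lay whole inside an intron of a multi-exon gene. They came from data that the comparisons of nested genes leave out. The count is above a fixed limit of 3, which is not a number expected from any background. No background share was counted beside it, so the 22 are given as a description only. All 22 had a single exon, at 22 loci. Whether they are separate genes was not tested.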

How the results depend on the processing

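The number of nested genes stayed at 38 with at least 1 isoform inside, every spanning host isoform, annotated host introns only or the longest containing intron. The last of these changes only which intron is reported, so it could not alter the number. The setting on spanning isoforms could act only where several host isoforms spanned the gene. It was 33 with 100 nt of distance to either host exon, 52 with single-exon isoforms (14 genes gained, among them Syx1A and alrm) and 56 with annotated extents and introns. Leaving out isoforms that end over 150 nt from annotated 3′ ends, in nested genes and hosts, gave 25, with 13 genes lost, among them PIP82, Mal-B1 and Ssk; of these 25, 80% were on the opposite strand and 44% in intron 1. With single-exon isoforms the median was 2.5 exons per nested gene. The share on the opposite strand was 78.8% to 87.9% over all alternatives, and 85.7% without the pre-mod(mdg4) units, an alternative chosen after seeing the data. The share in intron 1 was 36.8% by rank in annotated transcripts. The median host intron was 12417.5 nt with the longest containing intron and 14273 nt with annotated extents. The planned values on the AATAAA signal and on splice site letters were not run, since no genome sequence was used here. No paired analysis was possible because the 3 libraries form 1 group and are pooled in 1 file, and no library could be left out.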
